A study of Mus musculus with 22 samples.

Results

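Blood vessel endothelium in mammary tissue was followed through 10 marker genes, chosen by symbol: Pecam1, Cdh5, Cldn5, Emcn, Vwf, Egfl7, Esam, Eng, Plvap and Tie1. They are 10 of the 52526 distinct gene symbols in the deposited files and 10 of the 15138 genes that could be tested. The tissue was the left 4th mammary fat pad of 22 female C57BL/6J mice, aged 7 to 8 weeks, taken 24 hours after 100000 EO771 cells had been engrafted there. EO771 is a mammary cancer line of the same mouse strain, here carrying firefly luciferase. For 2 weeks before engraftment the mice had either a running wheel on its hub or the hub alone, and all received liposomes intravenously, holding either PBS or clodronate, 24 hours before engraftment and again with it. Clodronate is a drug that kills phagocytes that take up the liposomes. The groups held 6 control mice with PBS liposomes, 6 wheel mice with PBS liposomes, 5 control mice with clodronate liposomes and 5 wheel mice with clodronate liposomes. Every mouse had engrafted cells and liposomes, so no group shows the endothelium of untouched tissue, and the labels give a single experiment with no further batch. The comparisons ask how voluntary running and liposomal clodronate relate to the endothelial RNA of this tissue.

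Endothelial cells line all blood vessels and are joined by adherens and tight junctions, which hold back plasma and cells. Vessels of fat and mammary tissue are mostly capillaries, ensheathed by pericytes and smooth muscle (mural cells), and their growth and calibre are set by receptors on the endothelial surface. The genes studied here cover junction proteins, proteins of the cell surface and its openings, secreted proteins and receptors. The RNA was bulk RNA, in which fewer endothelial cells and less RNA per endothelial cell cannot be told apart.

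Levels are given in CPM, reads scaled to the same total in each library, which the authors deposited with every value below 1 raised to 1. The libraries held 13256467 to 20484578 reads, with a median of 16293026, and 57.2% to 64.5% of reads were assigned to genes. All 10 markers stood above the floor of 1 CPM in all 22 mice. A list of 12 lymphocyte genes, scored as mean log2(CPM + 1), stood between 4.24 and 5.75 in 5 mice and at 1.44 or below in the other 17. Of these 5 mice, 1 was a control PBS mouse, 1 a wheel PBS mouse and 3 were wheel clodronate mice. Values without them stand beside many of the comparisons below. A list of 8 skeletal muscle genes ranged from 1.63 to 11.2 over the 22 mice on the same scale. For 10 macrophage genes, which mark cells that clodronate is meant to reduce, the median change was -0.25 on the log2 scale with clodronate averaged over activity, 10 of 10 lower, against 57.4% of all genes, whose median was -0.04. In limma 0 were called at an adjusted p of 0.05, and 2 of 10 stood at an unadjusted p under 0.05, where 8.3% of all genes were lower at that level. Without the 5 mice with high lymphocyte genes the macrophage median was -0.50 and 4 of 10 had such a p, against -0.09 and 9.67% over all genes.

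The markers differed in level by nearly an order of magnitude. The 3′ reads taken per transcript do not grow with transcript length, so that levels may be set side by side, with limits for overlapped genes given below. Pecam1 was the most abundant, with a mean of 60.8 CPM (SD 16.1, n = 22), at the 89.8th percentile of the genes tested, followed by Esam at 46.8, Egfl7 at 40.3, Cdh5 at 34.9 and Plvap at 34.1 CPM. Eng stood at 19.5, Vwf at 15.4, Tie1 at 13.8 and Emcn at 12.9 CPM. Cldn5 was the lowest, with a mean of 7.34 CPM (SD 3.29, n = 22), at the 41.9th percentile. The neighbours in this order whose means differed by more than either gene's SD over the mice were Plvap and Eng, and Emcn and Cldn5. Spread between mice exceeded counting error for each marker. Eng varied least, with a coefficient of variation of 19.7% over all mice against 5.64% from counting alone, and Cldn5 most, with 44.8% against 9.20%.

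**Figure D1:**
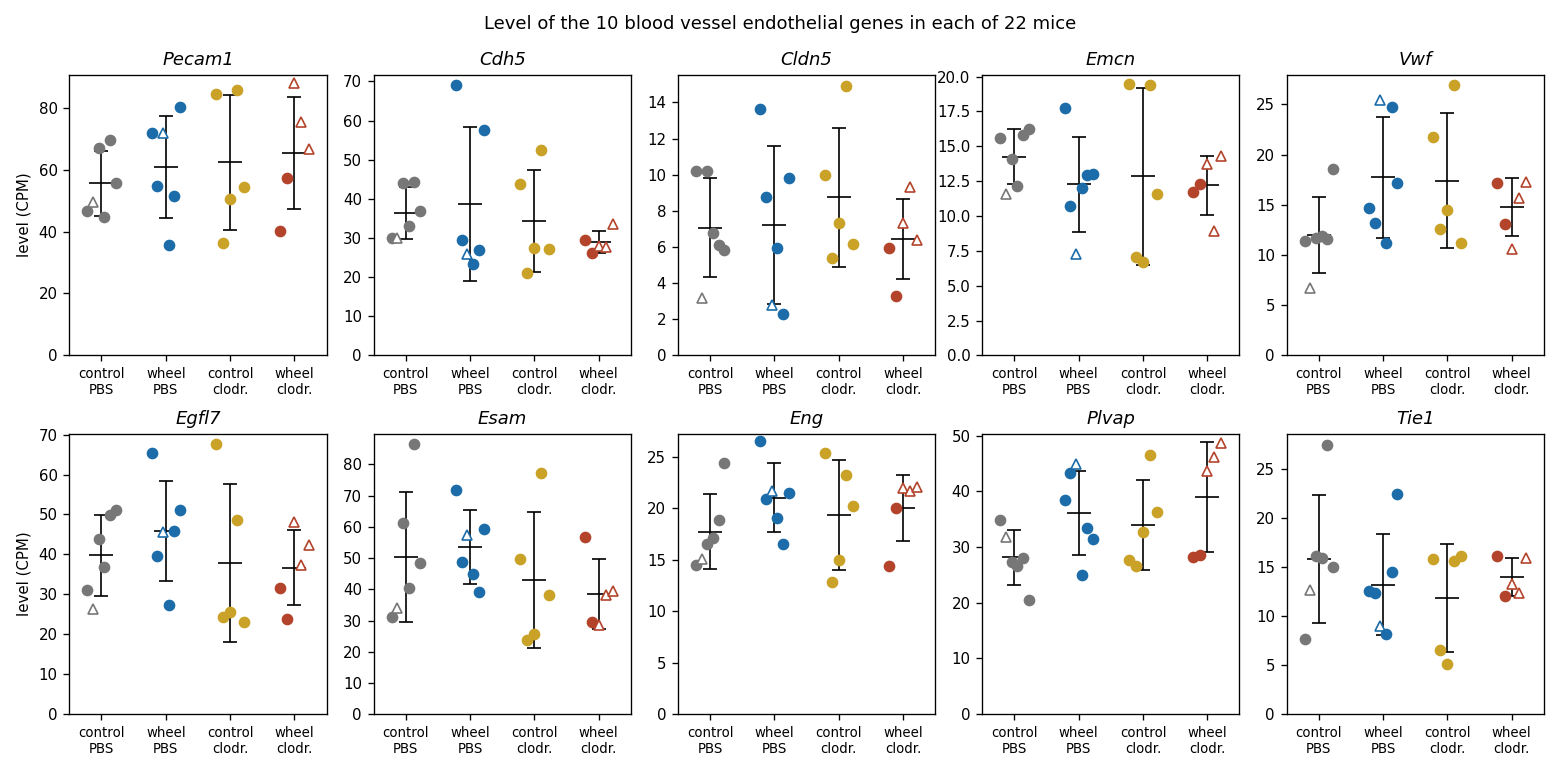
Level in CPM (vertical axes from 0) of each of the 10 endothelial genes, 1 point per mouse, in the 4 groups on the horizontal axes. Horizontal bars give the group mean, error bars 1 SD, and open triangles the 5 mice with a lymphocyte score over 3. For each gene the points of all 4 groups share a range, and the triangles of Plvap lie near the top of their groups, between 31.7 and 48.7 CPM.

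Pecam1 encodes the adhesion protein CD31, which endothelial cells carry at their contacts. Its gene lies on chromosome 11, from 106654217 to 106750628 on the minus strand of GRCm38. In PBS mice, Pecam1 ran from 44.8 through a median of 52.6 to 69.5 CPM without the wheel and from 35.8 through 63.2 to 80.0 CPM with it. In control clodronate mice it stood at 84.5, 36.5, 50.6, 85.7 and 54.5 CPM, and in wheel clodronate mice at 40.1, 57.2, 88.0, 75.3 and 66.6 CPM. Low and high mice occurred in every group, and all groups overlapped. The wheel was accompanied by a log2 change of 0.10 ± 0.22 (SE) with PBS and 0.09 ± 0.24 with clodronate liposomes (limma adjusted p = 0.993 and 0.938).

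Cdh5, on chromosome 8 from 104101625 to 104144511 on the plus strand, encodes VE-cadherin, the cadherin of endothelial adherens junctions. Its levels ran from 29.9 through 35.1 to 44.4 CPM in control PBS mice and from 23.3 through 28.1 to 69.2 CPM in wheel PBS mice. In control clodronate mice they were 43.7, 21.03, 27.4, 52.4 and 27.2 CPM, and in wheel clodronate mice 29.5, 26.1, 27.8, 27.8 and 33.5 CPM. Mice at 43.7 CPM or above thus occurred in every group but the wheel clodronate mice. They stood at 44.1 and 44.4 CPM in control PBS mice, 69.2 and 57.7 CPM in wheel PBS mice, and 43.7 and 52.4 CPM in control clodronate mice. The 5 wheel clodronate mice lay close together, with an SD of 2.83 CPM. The wheel-minus-control change with PBS was -0.03 ± 0.25 (limma adjusted p = 0.998), and its sign turned under 4 of the alternatives tried and without any 1 of 6 single mice.

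Cldn5 and Esam encode 2 further junction proteins, the tight-junction claudin-5 and an endothelial adhesion molecule of the immunoglobulin family. Cldn5 (chromosome 16, 18776847 to 18778262, plus strand) ranged from 2.27 CPM in a wheel PBS mouse to 14.9 CPM in a control clodronate mouse, and its group means lay between 6.44 and 8.76 CPM. Its reads numbered only 31 to 241 per mouse. Esam (chromosome 9, 37528078 to 37538319, plus strand) ran from 31.0 through 44.4 to 86.6 CPM in control PBS mice and from 39.2 through 53.0 to 71.9 CPM in wheel PBS mice. It stood at 49.6, 23.9, 25.8, 77.1 and 38.2 CPM in control clodronate mice and at 56.7, 29.6, 28.5, 38.0 and 39.5 CPM in wheel clodronate mice. With the wheel, 4 of 5 clodronate mice lay at or below 39.5 CPM and 5 of 6 PBS mice above it, but the ranges overlapped.

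Plvap, on chromosome 8 from 71497765 to 71511752 on the minus strand, encodes the protein that forms the diaphragms of endothelial fenestrae and caveolae. It ran from 20.5 through 27.6 to 34.8 CPM in control PBS mice and from 24.98 through 35.9 to 44.9 CPM in wheel PBS mice. In control clodronate mice it was 27.7, 26.6, 32.7, 46.5 and 36.3 CPM, and in wheel clodronate mice 28.2, 28.7, 43.7, 46.1 and 48.7 CPM. The upper 3 wheel clodronate mice and the highest wheel PBS mouse were mice with high lymphocyte genes. Over the 5 such mice the median of Plvap was 44.9 CPM, against 28.7 CPM in the other 17. The wheel-minus-control change of Plvap with clodronate was 0.19 ± 0.20 (SE) over all mice, -0.22 ± 0.24 without the 5 mice and -0.13 ± 0.21 with the lymphocyte score as a covariate. With PBS it was 0.34 ± 0.18, 0.31 ± 0.18 and 0.32 ± 0.16 in the same fits. Emcn (chromosome 3, 137341067 to 137432185, plus strand) encodes endomucin, a sialomucin of the venous and capillary surface. It ranged from 6.70 to 19.5 CPM, both extremes being control clodronate mice, and its group means lay within 12.2 to 14.2 CPM.

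Vwf, on chromosome 6 from 125546774 to 125686679 on the plus strand, encodes von Willebrand factor, which endothelial cells store and release to tether platelets. It ran from 6.70 through 11.7 to 18.6 CPM in control PBS mice and from 11.2 through 16.0 to 25.5 CPM in wheel PBS mice. In control clodronate mice it stood at 21.8, 12.6, 14.5, 26.9 and 11.2 CPM, and in wheel clodronate mice at 17.2, 13.1, 10.6, 15.7 and 17.3 CPM. Of the 6 control PBS mice, 5 lay at or below 11.9 CPM, and 5 of 6 wheel PBS mice lay above it. Egfl7 encodes a secreted protein that endothelial cells lay into the surrounding matrix. It lies on chromosome 2 from 26580014 to 26593120 on the plus strand, and ranged from 23.0 to 67.8 CPM, both being control clodronate mice. The last part of Egfl7 is overlapped by exons of Agpat2 on the opposite strand, with a median of 290 CPM, and the strand setting of the authors' counting is not given in the sources used here, so reads of these genes cannot be told apart. The protein-coding gene Gm20532, on the same strand as Egfl7, also covers its 3′ end and shares exon sequence with it. Gm20532 stood at 1 CPM, the floor, in all mice. How reads in the shared sequence were assigned is not given in the sources used here, so the level of Egfl7 may lack some of them.

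Eng and Tie1 encode receptors of the endothelial surface. Eng, on chromosome 2 from 32646595 to 32682669 on the plus strand, encodes endoglin, a co-receptor for ligands of the TGF-beta and BMP family. It ran from 14.5 through 16.9 to 24.3 CPM in control PBS mice and from 16.5 through 21.2 to 26.6 CPM in wheel PBS mice. It stood at 25.4, 12.8, 14.9, 23.2 and 20.2 CPM in control clodronate mice and at 14.4, 20.02, 22.0, 21.6 and 22.1 CPM in wheel clodronate mice. Exons of Fpgs, at a median of 8.57 CPM, overlap those of Eng at its 3′ end on the other strand, with the same limit of strand as for Egfl7. Gtpbp3, at 4.95 CPM, spans the 3′ end of Plvap on the other strand, but its exons do not overlap those of Plvap. Tie1, on chromosome 4 from 118471191 to 118490061 on the minus strand, encodes a receptor tyrosine kinase that works with the angiopoietin receptor. It ran from 7.66 through 15.5 to 27.5 CPM in control PBS mice and from 8.22 through 12.5 to 22.5 CPM in wheel PBS mice. In control clodronate mice it was 15.8, 6.52, 5.16, 15.6 and 16.1 CPM, and in wheel clodronate mice 16.2, 12.1, 13.3, 12.4 and 16.0 CPM. The control groups of Tie1 thus held both low and high mice, and the wheel clodronate group was narrow, with an SD of 1.96 CPM.

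With PBS liposomes, no endothelial marker passed the test between wheel and control mice. Of the 10 markers, 6 had a higher mean on the log2(CPM + 1) scale with the wheel, against 36.2% of all genes tested, and 4 had a lower mean. The median change of the 10 was 0.13, against -0.08 over all genes. Both all-gene values are for the scaling as deposited. The upper quartile of the genes tested was 26.0 to 29.5 CPM in control PBS mice and 25.8 to 26.4 CPM in wheel PBS mice, so they may depend on scaling. The largest changes were 0.52 ± 0.25 (SE) for Vwf, with a 95% interval from -0.004 to 1.044, and 0.34 ± 0.18 for Plvap. The lowest control PBS mouse for Vwf, at 6.70 CPM, and the highest wheel PBS mouse, at 25.5 CPM, were both mice with high lymphocyte genes, and without the 5 such mice the change of Vwf was 0.27 ± 0.26. In the same fit the mean change of the 10 markers went from 0.10 to 0.05, and 7 of 10 were higher, with a median of 0.03 against -0.08 over all genes. The lowest changes over all mice were -0.23 ± 0.25 for Emcn and -0.22 ± 0.30 for Tie1. In limma, 0 of 10 passed an adjusted p of 0.05, where 0% of all genes did, and 0 of 10 had an unadjusted p under 0.05, where 4.91% of all genes did. Adjusted p was 0.987 for both Vwf and Plvap, and exact two-sided permutation of the mice over 924 splits gave p = 0.0736 and 0.0693, the smallest that this design allows being 0.00216. The groups overlapped for all 10 markers, where 0.264% of all genes had groups that did not overlap. Vwf had an unadjusted p between 0.0255 and 0.0471 under 6 alternatives, which included 2 other scalings and 2 other filters on low values, and under each of them its adjusted p was above 0.8.

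With clodronate liposomes, the wheel and control mice likewise overlapped for all 10 markers, where 1.27% of all genes did not overlap. The median change of the 10 was 0.05, against 0.005 over all genes, and 6 of 10 were higher with the wheel, where 50.6% of all genes were. Changes ran from -0.37 ± 0.40 (SE) for Cldn5 to 0.34 ± 0.33 for Tie1. None of the 10 had an adjusted p under 0.05 in limma (0.00661% of all genes did) or an unadjusted one (10.4% did), and exact permutation over 252 splits gave p from 0.31 to 0.937. For Cldn5 the 95% interval reached from -1.19 to 0.46, and for Tie1 from -0.34 to 1.02. Of the 5 wheel mice in this comparison, 3 were mice with high lymphocyte genes, and of the 5 control mice 0 were. Without them, the mean change of the 10 markers went from 0.003 to -0.16, and 3 of 10 were higher. The median of the markers was then -0.18, against -0.04 over all genes.

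Averaged over the liposomes, the wheel-minus-control changes ran from -0.23 ± 0.27 (SE) for Cldn5 to 0.26 ± 0.14 for Plvap. Of the 10 markers, 7 were higher with the wheel, against 42.7% of all genes, with a median of 0.08 against -0.04. Plvap had a 95% interval from -0.02 to 0.54 (limma unadjusted p = 0.0655, adjusted p = 0.63). For the other 9 markers, adjusted p was 0.782 or above. Without the 5 mice with high lymphocyte genes, the change of Plvap was 0.04 ± 0.15, the mean of the 10 markers went from 0.05 to -0.06, and 5 of 10 were higher. The median of the markers was then -0.02, against -0.06 over all genes. The limma fit called 0% of all genes at an adjusted p of 0.05 and 8.09% at an unadjusted one. Whether the wheel effect differed between liposomes was tested by the interaction, for which Vwf had -0.69 ± 0.38 and Tie1 0.57 ± 0.45 (limma adjusted p = 0.694 and 0.812). Of the 10 markers, 2 had an interaction above 0, where 59.2% of all genes did, and 0 of 10 had an unadjusted p under 0.05, where 7.58% did (0% at an adjusted one). That share depended on scaling: the all-gene median of the interaction was 0.09 as deposited and -0.01 with upper-quartile scaling. Without the 5 mice the mean interaction of the 10 markers went from -0.09 to -0.21, that of Vwf was -0.40 ± 0.43, and 3 of 10 were above 0. The median interaction of the markers was then -0.32, against 0.03 over all genes.

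**Figure D2:**
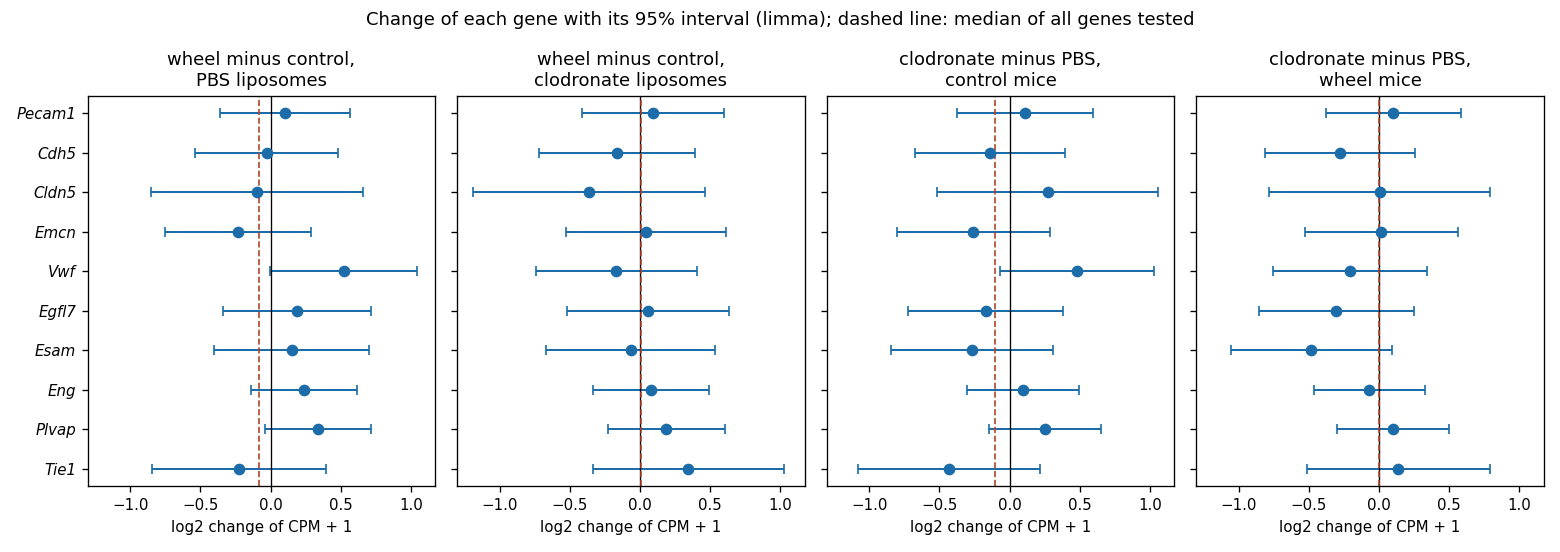
Change of each endothelial gene in log2(CPM + 1) (horizontal axes), with its 95% limma interval as a bar, in the 4 comparisons of pairs of groups. The solid line marks no change and the dashed line the median of all 15138 genes tested. All 40 intervals span 0, and that of Vwf in PBS mice starts at -0.004.

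Between clodronate and PBS liposomes, too, no marker passed the test. In control mice, changes ran from -0.43 ± 0.31 (SE) for Tie1 to 0.48 ± 0.27 for Vwf, and 5 of 10 were above 0, against 34.6% of all genes. The median was -0.02, against -0.10 over all genes. These all-gene values, too, may depend on scaling, as the upper quartile was 23.4 to 27.0 CPM in control clodronate mice. Limma adjusted p was 0.741 for Vwf and 0.821 for Tie1, and exact permutation over 462 splits gave 0.132 and 0.277. At an adjusted p of 0.05, 0 of 10 markers and 0% of all genes passed, and at an unadjusted one 0 of 10 and 6.99%. All 10 markers overlapped between the groups, where 0.634% of all genes did not. The control PBS group is shared with the wheel comparison in PBS mice, so that its 5 low Vwf mice enter both changes of that gene.

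In wheel mice, the largest difference with clodronate was that of Esam, which encodes the adhesion molecule described above. Its mean was 38.5 CPM (SD 11.3, n = 5) with clodronate and 53.5 CPM (SD 11.7, n = 6) with PBS liposomes, a change of -0.48 ± 0.28 (SE) with a 95% interval from -1.06 to 0.09. Exact permutation over 462 splits gave p = 0.0455 for Esam before any adjustment for the 10 markers and 4 comparisons, and limma gave an adjusted p of 0.53. The groups overlapped for Esam as for the other 9, where 1.26% of all genes had groups that did not. The changes of the other 9 markers lay between -0.31 (Egfl7) and 0.14 (Tie1), and 5 of 10 were above 0, against 50.1% of all genes. In limma, 0 of 10 passed an adjusted p of 0.05 (0.00661% of all genes did) or an unadjusted one (11.6% did). Adipocyte genes also stood lower: the score of 9 adipocyte genes ran from 8.66 to 9.26 in wheel clodronate mice and from 8.99 to 9.86 in wheel PBS mice. With this score as a covariate, the change of Esam was 0.03, the mean change of the 10 markers went from -0.10 to 0.22, and 9 of 10 were above 0. The share of all genes above 0 in that fit is not given here, so the count cannot be set against it. Of the 5 clodronate mice, 3 were mice with high lymphocyte genes, as was 1 of the 6 PBS mice. Without them the mean change of the 10 went to -0.28 and 1 of 10 (Tie1, 0.06) was above 0, with Esam at -0.33 ± 0.42 and Egfl7 at -0.66 ± 0.38. The median of the 10 was then -0.25, against -0.08 over all genes.

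Averaged over activity, clodronate-minus-PBS changes ran from -0.37 ± 0.20 (SE) for Esam to 0.18 ± 0.14 for Plvap. Of the 10 markers, 5 were higher with clodronate, where 42.6% of all genes were, and the median of the 10 was -0.05, against -0.04 over all genes. Over all genes limma called 31 (0.205%) at an adjusted p of 0.05, all of them lower with clodronate, and 10.4% at an unadjusted one, and 0 of the 10 markers by either. Adjusted p was 0.522 for Esam and at least 0.688 for the others. The adipocyte genes were lower with clodronate in 9 of 9, with a median change of -0.36. When their score was added to the fit, the mean change of the 10 markers went from -0.05 to 0.19 and 10 of 10 had a change above 0. The share of all genes above 0 in that fit is not given here, so the count cannot be set against it. Without the 5 mice with high lymphocyte genes the mean of the 10 was -0.18, with 2 of 10 above 0. The median of the 10 was then -0.21, against -0.09 over all genes. None of the 10 had an adjusted p under 0.05 in either fit.

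Across single mice within groups, most of the endothelial genes varied together. Each marker was set against the mean of the other 9 over the 22 mice, after each group was centred on its own mean, as a description with no test, since the markers were chosen as a set. Pearson's r was 0.86 for Cdh5, 0.84 for Egfl7, 0.77 for Pecam1, 0.75 for Esam, 0.72 for Eng, 0.70 for Emcn, 0.62 for Tie1 and 0.51 for Cldn5. Vwf, at 0.41, and Plvap, at 0.23, followed the others least. Spearman's rho ran from 0.17 for Plvap to 0.86 for Cdh5. Without the 2 mice farthest from the median of the others' mean, r ran from 0.18 for Plvap to 0.85 for Egfl7. All 45 pairs of markers had r above 0, from 0.02 for Plvap with Tie1 to 0.79 for Pecam1 with Egfl7, with a median of 0.49, which was 0.56 in the 17 mice without high lymphocyte genes. The points share the library and its depth scaling.

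**Figure D3:**
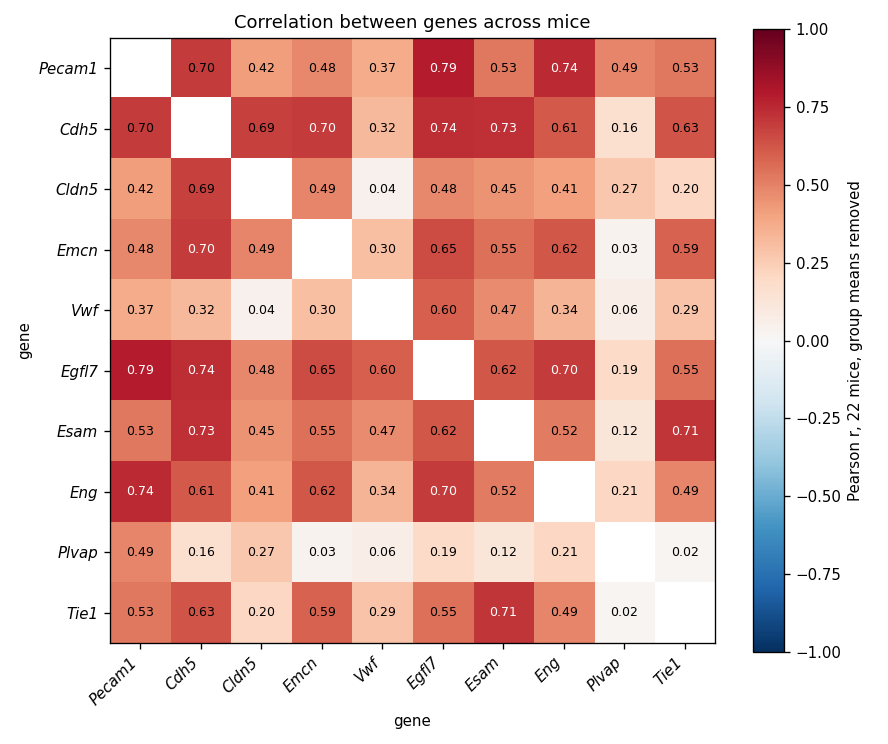
Pearson's r between each pair of the 10 endothelial genes over 22 mice, on log2(CPM + 1) with group means removed. Colour runs from blue (-1) through white (0) to red (1), with the value printed in each cell, and the row and column of Plvap are the palest, with values of 0.02 to 0.49.

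Promoter sequences are shown for 3 of these genes, with different r and from different roles (Eng 0.72, Emcn 0.70, Cldn5 0.51). RefSeq (GRCm38.p6) start sites were matched for 5 of the 10 genes (Cldn5, Emcn, Egfl7, Eng and Tie1) and gave 7 windows of the 250 bases before a start. Capitals mark GGAA on either strand (TTCC on the strand printed), the core letters bound by ETS factors, a family that includes the endothelial regulators Erg and Fli1. The windows, on the plus strand, are chr2:32646345-32646594 for Eng, chr3:137340828-137341077 for Emcn and chr16:18776597-18776846 for Cldn5:
Eng: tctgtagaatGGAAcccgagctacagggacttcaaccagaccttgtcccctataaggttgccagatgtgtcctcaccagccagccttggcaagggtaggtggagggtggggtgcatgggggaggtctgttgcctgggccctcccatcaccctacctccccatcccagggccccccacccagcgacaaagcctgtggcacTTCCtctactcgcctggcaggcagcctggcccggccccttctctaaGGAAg
Emcn: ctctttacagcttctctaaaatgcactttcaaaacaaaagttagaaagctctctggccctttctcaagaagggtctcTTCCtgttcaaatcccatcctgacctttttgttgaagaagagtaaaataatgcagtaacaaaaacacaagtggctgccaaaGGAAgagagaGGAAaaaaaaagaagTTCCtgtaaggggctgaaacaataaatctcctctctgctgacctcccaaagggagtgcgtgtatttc
Cldn5: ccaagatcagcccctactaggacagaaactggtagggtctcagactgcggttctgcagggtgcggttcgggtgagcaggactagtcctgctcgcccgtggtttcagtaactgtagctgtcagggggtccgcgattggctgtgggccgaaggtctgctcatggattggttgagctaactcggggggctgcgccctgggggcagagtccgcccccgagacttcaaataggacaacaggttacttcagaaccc
The letters GGAA or TTCC occurred 3 times in the window of Eng, 4 times in that of Emcn and 0 times in that of Cldn5. They occurred 7 times in the window of Tie1 and 1 to 5 times in the 3 windows of Egfl7. Of 32851 promoter windows of the same length, 93.45% held at least 1 match and 33.38% held 4 or more, with a median of 3. The longer AGGAAG, which contains GGAA, was found 2 times in Eng, 2 in Emcn, 1 in Tie1, 0 to 3 in the windows of Egfl7 and 0 in Cldn5, against 29.48% of all windows with a match. CCGGAA, which contains it too, and TATAAA were in 0 of the 7 windows, against 12.03% and 12.37% of all windows, both strands being searched.

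Levels of 7 of the 10 endothelial genes followed the score of mural genes in the same piece of tissue, and levels of 4 that of adipocyte genes, by an adjusted p under 0.05 for r. For each marker, r was computed with the scores of 9 adipocyte, 10 mural, 8 skeletal muscle and 10 macrophage genes, 40 relations in all, over 22 mice with groups centred. Here, too, the points share the library and its depth scaling. The share of all genes that follow these scores was not computed. The counts here and below therefore cannot be read as particular to the endothelial genes. With adipocyte genes, Esam had r = 0.80 (rho 0.82, permutation p = 0.00011 and 0.00016, adjusted over the 40 relations 0.0024 and 0.0064) and 0.75 without the 2 mice farthest from the median score. Cdh5 had r = 0.79 (rho 0.77, permutation p = 0.00012 and 0.00053, adjusted 0.0024 and 0.00707) and 0.77 without those 2 mice. Tie1 and Emcn also passed an adjusted p of 0.05 for r (0.73 and 0.68, permutation p = 0.00327 and 0.0116, adjusted 0.0187 and 0.0387), whereas for rho Tie1 and Pecam1 did. Plvap had r = 0.04 (rho 0.09, permutation p = 0.878 and 0.703, adjusted 0.901 and 0.76). In the 17 mice without high lymphocyte genes, 8 of 10 markers passed for r instead of 4, and the median r was 0.74 instead of 0.57. Pecam1 went from 0.57 to 0.86 (permutation p = 0.0194 and 0.00055, adjusted 0.0596 and 0.00672). Among the 5 mice left out, the 3 wheel clodronate mice had adipocyte scores of 8.66 to 8.88 and Pecam1 at 66.6 to 88.0 CPM.

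**Figure D4:**
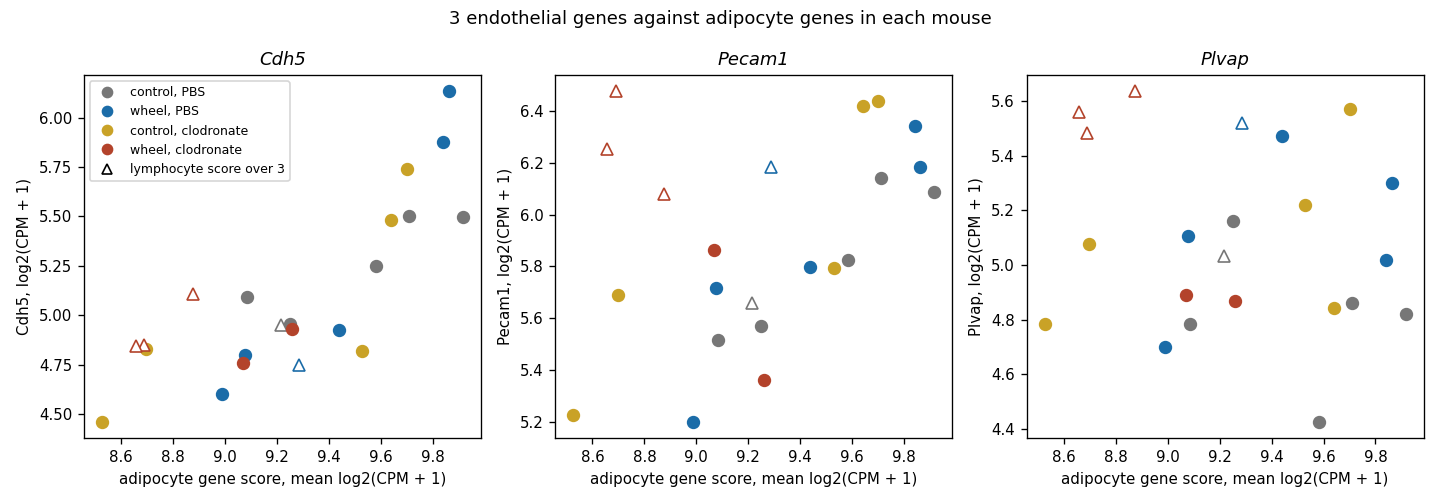
Levels of Cdh5, Pecam1 and Plvap in log2(CPM + 1) (vertical axes, not from 0) against the mean log2(CPM + 1) of 9 adipocyte genes (horizontal axes), 1 point per mouse, coloured by group. Open triangles mark the 5 mice with a lymphocyte score over 3. Cdh5 is higher where the adipocyte score is higher, Pecam1 is so among the filled points, and Plvap shows r = 0.04 with group means removed.

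With the mural genes, 7 of 10 markers passed an adjusted p of 0.05 for r in all mice and 7 in the 17 mice, and 6 passed for rho in each. The median r was 0.65, with Cdh5 at 0.86 (rho 0.79, permutation p = 0.0002 and 0.00032, adjusted 0.00267 and 0.0064) and Plvap at 0.06 (rho 0.01, permutation p = 0.819 and 0.974, adjusted 0.886 and 0.974). Skeletal muscle genes had r from -0.49 (Cldn5) to -0.19 (Tie1). Only Cldn5 passed for r (permutation p = 0.0115, adjusted 0.0387, with rho -0.51, permutation p = 0.0167 and adjusted 0.0556, and r = -0.43 without the 2 mice farthest from the median). Macrophage genes had r from -0.25 (Tie1) to 0.39 (Eng), and 0 of 10 passed. Relative to the mean of the other 9 markers, the 5 mice with high lymphocyte genes had Plvap at 0.93 to 1.09 on the log2 scale, against -0.27 to 1.01 in the other 17. They had Pecam1 at 1.51 to 2.07, against 0.99 to 1.76. Both differences are descriptions, since those mice were picked from the data.

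A further 7 lists of endothelial genes, with 60 genes of which 57 were tested, gave 0 genes past an adjusted p of 0.05 in limma, with the wheel or with clodronate averaged over the other factor. With the wheel, 3 of 10 transcription factors had an unadjusted p under 0.05 and were higher (3.93% of all genes were), and the list's median was 0.26 against -0.04 over all genes. All 3 (Fli1, Lyl1 and Klf2) stood at that level with clodronate and 0 with PBS. The list's summed level was 188 to 357 CPM in the 5 mice with high lymphocyte genes and 76.4 to 179 CPM in the other 17. Without those 5 mice its median was 0.16, against -0.06 over all genes, and 0 of 10 had such a p in the averaged comparison, where 1.82% of all genes were higher so. Lyl1, of blood and endothelium, had the largest change, 0.72 ± 0.32 (SE, adjusted p = 0.6), and Erg the lowest, -0.24 ± 0.28. Among 17 other pan-endothelial genes 0 passed at an unadjusted 0.05, from 0.42 for the sphingosine phosphate receptor S1pr1 to -0.25 for Cd34. Of 7 growth factor and Notch receptors, 1 was lower at that level (4.16% of all genes were): Notch4 by -0.57 ± 0.24 (adjusted p = 0.59), while the VEGF receptor Kdr had 0.17. Of 6 sprouting genes, 3 were lower at that level, with the peptide ligand Apln at -0.91 ± 0.30 (adjusted p = 0.53) and Kcne3 at 0.19. Capillary genes were lower in 6 of 7, 1 of them at that level, with Rgcc at -0.46 ± 0.16 (adjusted p = 0.58) and Cd300lg at 0.01. Arterial genes ran from -0.26 (Dll4) to 0.39 (Bmx) and venous genes from -0.25 (Ephb4) to 0.16 (Ackr1), 0 of them at that level. Without the 5 mice, 0 receptors, 0 capillary genes and 2 sprouting genes were lower at that level, against 5.05% of all genes. The arterial median then went from -0.09 to 0.16, with 1 gene higher at that level, against 1.82% of all genes.

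With clodronate, all 7 capillary genes had a lower mean, 4 of them at an unadjusted p under 0.05 (8.3% of all genes were), with a median of -0.39 against -0.04 over all genes. Btnl9 had the largest difference, -0.47 ± 0.23 (SE, adjusted p = 0.47), and Cd300lg the smallest, -0.06 ± 0.20. Without the 5 mice with high lymphocyte genes all 7 were again lower, with a median of -0.32, and 1 of them was at that level, against 9.67% of all genes. Adipocyte genes, as given above, moved the same way, and their part in these values was not tested. Of 6 sprouting genes, 5 were lower, 2 at that level, with the basement membrane collagen Col4a2 at -0.57 ± 0.16 (adjusted p = 0.13) and Pgf at 0.33 ± 0.28. Dll4, a Notch ligand of arteries and tip cells, had -0.68 ± 0.28 (adjusted p = 0.38) and was 1 of 6 arterial genes at that level, with Bmx at 0.18. Selp, encoding P-selectin of activated venules, had 0.54 ± 0.26 (adjusted p = 0.47) and was 1 of 4 venous genes at that level (2.13% of all genes were higher so), with Ephb4 at -0.12. Other pan-endothelial genes ran from -0.63 (Myct1) to 0.22 (Clec14a), 2 of 17 lower at that level. Receptors ran from -0.37 (Aplnr) to 0.07 (Notch1) and transcription factors from -0.41 (Erg) to 0.39 (Ets1), 0 of them at that level. Without the 5 mice, 0 of 4 venous genes were higher at that level, against 2.87% of all genes. In that fit 0 of 17 other pan-endothelial genes and 2 of 6 sprouting genes were lower so, against 9.67%. Arterial genes then had 1 higher and 1 lower at that level.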

How the data were processed

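RNA libraries (QuantSeq 3′ FWD) of 22 mice were analysed, 1 library per mouse, with groups taken from the labels. Per the submitters' processing notes, reads were mapped with STAR 2.5.3a to GRCm38. The deposited signal of each gene is in CPM, with values below 1 set to 1 by the authors, so up to 13 to 20 reads per gene are lost and tests that need counts were not used. Reads were inferred from the steps between values. The 106 symbols listed more than once kept the row with the highest mean.

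The 15138 genes whose values exceeded the floor in 5 or more mice entered a limma fit (version 3.58.1, R 4.3.3) of log2(CPM + 1), a scale that understates changes of low genes, with 4 group means, a variance trend, two-sided tests and Benjamini-Hochberg adjustment over all genes. Single markers were also tested by exact two-sided permutation of mice, and correlations by 100000 permutations within groups. On simulated data for the wheel comparison with PBS liposomes, a log2 change of 1.5 was given to 200 of 15138 genes, of which 100% were recovered, with 4 false calls. The largest marker change in the real comparison was 0.52 (Vwf), and recovery of changes of that size or smaller was not tested. The simulated spread between mice was fixed and drawn independently for each gene. It was not taken from these data, where the median within-group SD of log2(CPM + 1) was 0.46. Recovery under the real spread was thus not tested. The closest mice differed by a chi-square of 21.5 per gene, so no library was counted as a repeat. The replicate numbers in the labels belong to different mice and were not used for pairing.

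Gene positions and overlaps were taken from GENCODE M21 (GRCm38), and promoters from RefSeq (GRCm38.p6). The markers and lists were chosen with earlier results of these data known. Genes named beside the 10 markers were, per list, that with the highest and that with the lowest change, others being named with a count of 5 or fewer after their values were seen, and the 10 genes most correlated with the mean of the markers. Alternatives were other pseudocounts (0.1, 5 and none), filters and scalings, no variance trend, a replicate block, covariates (lymphocyte, adipocyte and muscle scores), only the groups compared, and leaving out the 5 mice with high lymphocyte genes or each mouse in turn. The unpseudocounted scale and the muscle covariate were added after the data had been seen.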

Additional observations from a re-analysis of the deposited data

Results flagged for a closer look

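Of 40 combinations of gene and group of mice, 1 held a mouse far from the others of its group: Eng in wheel clodronate mouse 1, at 14.4 CPM, with the nearest of the other 4 mice at 20.02 CPM. The gap was 0.772 of the group's whole range. Chance places such a mouse in about 1 in 20 groups, or about 2 of the 40.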

How the results depend on the processing

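In every alternative and every fit without a single mouse, 0 of 10 markers passed an adjusted p of 0.05 in any of the 7 comparisons. Numbers of markers at an unadjusted p under 0.05, all 0 as reported, were as follows. In PBS mice, wheel against control gave 1 with no filter (genes above the floor in at least 1 mouse), with a mean CPM of 5 or more, with scaling to assigned reads, with no variance trend and with the adipocyte covariate, 2 with upper-quartile scaling and 0 to 2 without a single mouse. Clodronate against PBS in control mice and the interaction each gave 1 with upper-quartile scaling and with the adipocyte covariate. The averaged wheel effect gave 1 with either other scaling. Clodronate in wheel mice gave 1 with the adipocyte covariate and with only the groups compared, and the wheel with clodronate and the averaged clodronate effect 1 each with the adipocyte covariate. Without a single mouse these 5 ranged from 0 to 1, and 0 to 0 for the wheel with clodronate. The mean change of the markers for clodronate in wheel mice went from -0.10 to 0.22 with the adipocyte covariate. Without the 5 mice with high lymphocyte genes the mean for the averaged wheel effect went from 0.05 to -0.06. Among the markers named for a comparison (all 10 for the wheel with PBS, the highest and the lowest in each of the other 6), signs turned for Cdh5 in PBS mice (wheel against control, 0.0691, 0.00151, 0.00785 and 0.0129 with upper-quartile scaling, assigned reads, without the 5 mice with high lymphocyte genes and the adipocyte covariate, and -0.218 to 0.0881 without a single mouse), for Cldn5 there (-0.30 to 0.13 without a single mouse) and for Esam with the adipocyte covariate (0.0324 in wheel mice, 0.00604 averaged over activity). Over all 70 changes (10 markers, 7 comparisons), 56 of 950 values under alternatives turned sign, 19 of them with the adipocyte and 10 with the lymphocyte covariate and 16 without the 5 mice, and 81 of 1540 without a single mouse. The mean of the 10 markers turned sign in 18 of 95 fits under alternatives. The cause was not tested.

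Counts over all genes at an adjusted p of 0.05 moved more. Averaged clodronate, 31 as reported, gave 54 with a mean CPM of 5 or more, 12 with upper-quartile scaling, 15 with assigned reads, 20 with no variance trend, 11 with the replicate block, 0 without the 5 mice with high lymphocyte genes, 0 with the adipocyte and 17 with the muscle covariate. It ran from 9 without control clodronate mouse 3 to 146 without control clodronate mouse 1, and also moved by over 1.5 times without control PBS mice 1 (14), 3 (15) or 4 (70), control clodronate mouse 2 (12) or wheel clodronate mice 2 (19) or 3 (14). Clodronate in wheel mice, 1 as reported, gave 3 with a pseudocount of 5 and with upper-quartile scaling, 4 with no filter, 2 with assigned reads or no variance trend, 14 without the 5 mice, 0 with a mean CPM of 5 or more, the block, the lymphocyte or adipocyte covariate or only the groups compared, and 0 to 51 without a single mouse (51 and 28 without wheel clodronate mice 2 and 1, 0 without mouse 5). The wheel with clodronate, 1 as reported, gave 3 with no filter, 12 without the 5 mice, 0 with a mean CPM of 5 or more, the block, any covariate or only the groups compared, and 0 to 236 without a single mouse (236 and 118 without wheel clodronate mice 2 and 1, 0 without mouse 5 or control clodronate mice 1 to 4). Averaged wheel and interaction gave 2 each with no filter. Clodronate in control mice gave 0 to 38 without a single mouse (38 without control clodronate mouse 1).

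The replicate numbers were not taken to pair mice. Over 21 pairs of groups and numbers, same-numbered mice correlated from -0.39 to 0.52, with 10 over 0.1. Mice with different numbers were not compared, so these values cannot decide whether the numbers pair mice. With the number as a block, the mean change of the markers for averaged clodronate was -0.01. Cldn5, Emcn, Vwf and Tie1 rest on 31 to 478 reads per mouse, so changes within their counting error were not detectable. Their spread between mice was larger than that error.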

Other observations

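Of the 15138 genes tested, the 10 whose levels most resembled the mean of the 10 endothelial markers over the 22 mice, with groups centred, were Tcf4 (r = 0.93), Itga1 (0.89), Podn (0.88), Rgs5 (0.87), Cd81 (0.87), Pttg1ip (0.87), Tacc1 (0.87), Aqp1 (0.87), Pla2g16 (0.86) and Adgrl4 (0.85). Rgs5 is a pericyte marker, Aqp1 a water channel of capillaries and Adgrl4 an adhesion receptor of endothelium. These values are a description, with no test, and the points share library and depth scaling. The median r was 0.72 for 7 capillary genes, 0.58 for 17 other pan-endothelial genes, 0.15 for 10 endothelial transcription factors and 0.21 for 4 venous genes, against 0.04 over all genes. It was 0.72 for 9 adipocyte genes, -0.46 for 8 skeletal muscle genes, -0.02 for 12 lymphocyte genes and -0.64 for 5 genes of dividing cells. Over all genes, 1302 had r above 0.5.

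Markers of other vessel types and cells were followed in the same fit, and 0 of them passed an adjusted p of 0.05 in limma. Averaged over liposomes, the 12 lymphocyte genes were all higher with the wheel, 9 at an unadjusted p under 0.05, where 42.7% of all genes were higher and 3.93% at that level, with a median of 1.34. The 3 wheel clodronate mice with high lymphocyte genes are part of this comparison, and without the 5 such mice the median was 0.01 and 0 had such a p. Prox1, the transcription factor of lymphatic endothelium, had 0.93 ± 0.29 (SE, adjusted p = 0.53) and was the largest of 5 lymphatic genes, and Glycam1, of high endothelial venules, had 2.59 ± 1.17 (adjusted p = 0.6). Without the 5 mice the median of 2 high endothelial venule genes went from 1.33 to 0.07, and that of the lymphatic genes from 0.35 to 0.02. In either fit 1 lymphatic gene was higher at an unadjusted p under 0.05, against 3.93% and 1.82% of all genes. Lep, encoding the fat hormone leptin, had -1.24 ± 0.32 with the wheel (adjusted p = 0.5). With clodronate, where 57.4% of all genes were lower and 8.3% at an unadjusted p under 0.05, 6 of 6 fibroblast genes were lower, 4 at that level, from -0.59 for Col1a1 to -0.06 for Pdgfra. Of 10 mural genes 9 were lower, 2 at that level, with Cspg4 at -0.60 ± 0.21 (adjusted p = 0.26), while Des, shared with skeletal muscle, had 1.16 ± 0.55 (adjusted p = 0.47). Without the 5 mice, 3 fibroblast genes and 1 mural gene were lower at that level, against 9.67% of all genes. Of 3 platelet genes tested, 2 were higher with clodronate, with a median of 0.21, and only Pf4 was lower (-0.81 ± 0.24, adjusted p = 0.17). With the wheel only Itga2b was higher, at 0.68, and 2 were lower, Pf4 by -0.37, with a median of -0.30. Without the 5 mice with high lymphocyte genes the platelet medians were -0.05 with clodronate and -0.04 with the wheel. Median changes with the wheel and with clodronate were 0.04 and -0.05 for 8 epithelial genes, -0.17 and -0.09 for 5 genes of dividing cells, -0.10 and 0.28 for 4 red blood cell genes, and -1.55 and 1.54 for 8 skeletal muscle genes. Without the 5 mice these medians, in the same order, were 0.08 and -0.19, -0.63 and -0.43, 0.24 and 0.47, and -0.53 and 2.85.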
